A study of Mus musculus with 12 samples.

Results

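Matrix metalloproteinases (MMPs) and their tissue inhibitors (TIMPs) were followed in the messenger RNA of cultured mouse bone marrow-derived mesenchymal stem cells (BMSCs), the adherent stromal cells of marrow from which bone, fat and cartilage cells can arise. The genes were chosen by name and comprised 10 of the 23358 rows of the gene count table: Mmp2, Mmp3, Mmp9, Mmp11, Mmp13, Mmp14, Mmp19, Timp1, Timp2 and Timp3. There were 12 libraries in 4 groups of 3. CytoD+CK cells received cytochalasin D, a fungal compound that caps actin filaments, together with CK666, which blocks the branched-actin nucleator Arp2/3. CK cells received CK666 alone, CytoD cells received cytochalasin D alone, and Ctrl cells were untreated. Exposure lasted 24 h and began 1 day after plating at 10000 cells per square centimetre in medium with 10% serum. No vehicle is named for Ctrl cells, and neither the concentrations nor the mouse strain, age and sex are stated in the labels. It is also not stated whether replicates came from separate animals or cultures, so the spread behind each p value may be only technical.

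MMPs are zinc-dependent endopeptidases that cut collagens and other matrix proteins. Most are secreted as inactive precursors, and some, such as the product of Mmp14, sit in the plasma membrane. TIMPs block the active site of MMPs, and TIMP2 also bridges MMP14 and the precursor of MMP2, which is then activated at the cell surface. In skeletal tissue MMP13 is the collagenase of bone-forming and hypertrophic cartilage cells. The measurements are of RNA only and say nothing of secretion, activation or enzyme activity.

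Of the 10 genes, 8 had counts high enough for a test, and Mmp3 and Mmp9 stayed low, with at most 14 counts in any library. Mmp13 moved most. It was 8.14-fold higher in CytoD than in Ctrl, 2.03-fold lower in CK than in Ctrl, and 5.11-fold lower in CytoD+CK than in CytoD. Timp1 fell 2.46-fold in CytoD and 2.46-fold in CK, and 2.77-fold in CytoD+CK, all against Ctrl. Mmp11 rose in all 3 treated groups. Mmp14, the most abundant protease transcript of the set per length, and Timp3 passed the test in none of the 3 comparisons with Ctrl.

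The promoters of Mmp13, Mmp11 and Timp1 are shown because these are the members with the largest changes against Ctrl. They come from RefSeq (build GRCm38.p6), and 7 of the 10 genes were matched in the promoter table used here. Each runs from 250 bases before to 50 bases after the start of the gene, read along the gene's own strand. Mmp13 is from chr9:7272264-7272563 (plus strand), Mmp11 from chr10:75932453-75932752 (minus strand) and Timp1 from chrX:20869916-20870215 (plus strand). Capitals mark the motifs found by a search of both strands for TGANTCA (AP-1), TGTGGT (RUNX), CATTCC (TEAD) and the SRF CArG box.
Mmp13: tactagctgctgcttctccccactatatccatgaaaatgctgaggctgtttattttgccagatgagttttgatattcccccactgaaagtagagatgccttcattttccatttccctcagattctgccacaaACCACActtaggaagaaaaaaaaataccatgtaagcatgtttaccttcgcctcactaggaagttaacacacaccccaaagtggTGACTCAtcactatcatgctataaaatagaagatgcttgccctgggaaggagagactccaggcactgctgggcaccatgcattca
Mmp11: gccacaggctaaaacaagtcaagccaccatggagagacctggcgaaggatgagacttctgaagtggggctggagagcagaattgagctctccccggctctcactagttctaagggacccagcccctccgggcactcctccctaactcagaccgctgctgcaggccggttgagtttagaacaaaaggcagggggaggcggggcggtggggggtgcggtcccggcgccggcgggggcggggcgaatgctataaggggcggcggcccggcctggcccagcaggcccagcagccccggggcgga
Timp1: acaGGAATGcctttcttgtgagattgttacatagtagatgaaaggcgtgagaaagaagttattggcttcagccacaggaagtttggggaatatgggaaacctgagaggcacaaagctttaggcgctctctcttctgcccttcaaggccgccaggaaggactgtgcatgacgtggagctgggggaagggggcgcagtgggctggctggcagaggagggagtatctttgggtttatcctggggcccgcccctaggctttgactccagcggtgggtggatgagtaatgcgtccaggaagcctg
With the start base counted as 0, the Mmp13 window held TGACTCA from position -35 and ACCACA, the RUNX letters on the other strand, from position -118. The Timp1 window held GGAATG, the TEAD letters on the other strand, from position -247, and the Mmp11 window held none of the 4. Mmp3, also on chromosome 9, had TGAGTCA from position -46. Mmp14, which was not called against Ctrl, had the same RUNX letters ACCACA as Mmp13, from position -114. The windows of Timp2 and Timp3 held none of the 4. Among 32851 promoter windows of the same length, 7.81% held the AP-1 letters, 16.8% the RUNX letters, 14.7% the TEAD letters and 1.63% a CArG box. These matches describe letters and are not evidence of binding.

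The sum of gene counts was 48930210 to 69269716 per library. Every count in the table was even, and the floor behind a count of 0 was set at 3 counts. It amounts to 0.0423 to 0.0634 CPM (counts scaled by TMM to a common library size) depending on the library, covers counting error only, and would be higher if each fragment was counted by both of its reads. Of 14 marrow stromal markers 11 exceeded 1 CPM, led by Cxcl12, while Thy1 never had more than 4 counts and Lepr averaged under 1 CPM in each group. Of 13 stromal markers tested against Ctrl, 2 were higher and 7 lower in CytoD+CK, 2 higher and 7 lower in CK, and 5 higher and 4 lower in CytoD. Of all genes tested, 46%, 41.1% and 37.9% were called in these comparisons. The macrophage markers Ptprc, Emr1 and Itgam and 5 more of 14 never exceeded 3 counts. Of 10 neutrophil markers 5, among them S100a9, Mpo and Ltf, never exceeded 3 counts, while S100a8 averaged 2.79 ± 0.884 CPM in CytoD+CK, 1.33 ± 1.0 CPM in CK and 1.44 ± 0.462 CPM in CytoD, with at most 2 counts in any Ctrl library. The others tested, Camp, Cxcr2 and Csf3r, were not called against Ctrl in any treated group. Camp averaged 0.895 ± 0.330 CPM in CytoD+CK, 0.930 ± 0.231 CPM in CK, 1.47 ± 0.168 CPM in CytoD and 1.49 ± 0.509 CPM in Ctrl. Of 8 endothelial markers Vwf alone averaged above 1 CPM, and it was higher than in Ctrl in CytoD+CK (log2 1.20, adjusted p = 0.000843) and in CytoD (log2 0.68, adjusted p = 0.0346). Tek, the only other one tested, went the other way, at 0.107 ± 0.127 CPM in CytoD+CK against 0.475 ± 0.189 CPM in Ctrl (log2 -2.19, adjusted p = 0.0494). In CytoD it was not called (log2 -1.07, adjusted p = 0.295). Tie1, Emcn and Cldn5 never exceeded 3 counts. The part of these markers in the members' changes was not tested. CK replicate 3 stood apart from CK replicates 1 and 2, with median absolute log2 differences of 0.289 and 0.276 against 0.126 between those, and across genes, which are not independent replicates, its deviation had a Pearson r of -0.458 with log2 length. CytoD+CK replicate 1 stood apart for Timp1 and Timp3, as given with those genes.

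Levels per length differed widely between the members. In CytoD+CK, CytoD and Ctrl the order by the authors' RPKM (reads per kilobase of transcript, scaled to library size) began with Timp2, followed by Mmp14. In CK, Mmp14 came before Timp2, at 375 ± 44.8 RPKM and 288 ± 12.8 RPKM (SD, n = 3, as for all RPKM and CPM means here). In Ctrl, Timp2 stood at 374 ± 4.20 RPKM, Mmp14 at 302 ± 10.5 RPKM and Timp1 at 296 ± 20.1 RPKM, and the Mmp14 and Timp1 values of single Ctrl libraries overlapped. The other Ctrl levels did not overlap with their neighbours, with Mmp11 at 68.4 ± 1.55 RPKM, Mmp19 at 19.7 ± 0.552 RPKM, Mmp2 at 11.4 ± 1.18 RPKM, Timp3 at 5.56 ± 0.410 RPKM and Mmp13 at 2.68 ± 0.368 RPKM. Timp1 came next after these in CytoD+CK and CK and after Mmp11 in CytoD, and in each treated group its libraries overlapped with those of Mmp11. Mmp13 was the least abundant of the 8 in CytoD+CK, CK and Ctrl, with an overlap with Timp3 in CytoD+CK. In CytoD it came before Mmp2 and Timp3, at 22.7 ± 0.397 RPKM.

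**Figure D1:**
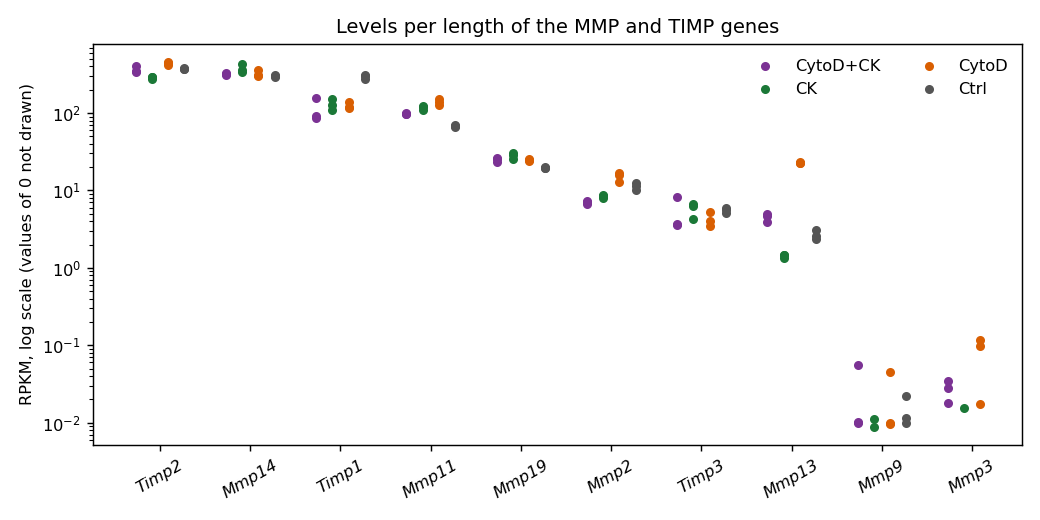
RPKM on a log axis for each of the 10 genes, ordered by their level in Ctrl, with 1 point per library and the groups CytoD+CK, CK, CytoD and Ctrl from left to right within each gene. Mmp13 in CytoD, at 22.7 RPKM, lies far above its other groups, and Mmp3 and Mmp9 lie below 0.2 RPKM in all libraries, with values of 0 not drawn.

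Against Ctrl, 5 of the 8 tested members were called in CytoD (4 higher, 1 lower), where 37.9% of all 13534 genes tested were called (19.1% higher, 18.9% lower). In CK 6 were called (2 higher, 4 lower), against 41.1% of all genes (22.5% higher, 18.7% lower), and in CytoD+CK 5 were called (3 higher, 2 lower), against 46% of all genes (24.4% higher, 21.6% lower). Calls rest on an adjusted p under 0.05 from the quasi-likelihood test of edgeR, adjusted by Benjamini-Hochberg over all genes tested, and the standard error (SE) follows each log2 fold change. The 3 comparisons share the Ctrl libraries. Without CK replicate 3 all 6 calls in CK remained, with log2 fold changes of -0.63 for Mmp2, 0.59 for Mmp11, -1.03 for Mmp13, 0.31 for Mmp19, -1.49 for Timp1 and -0.49 for Timp2. Coordinates below are those of the deposited table. Each overlaps the gene of the same name on the mouse build GRCm38 in GENCODE M21, with starts and ends that differ from that annotation by up to 7471 bases. The median log2 fold change of the 8 members was 0.22 in CytoD, -0.27 in CK and -0.05 in CytoD+CK, beside 0.02, 0.03 and 0.04 over all genes tested. In RNA of whole cultures, fewer cells of a type and less RNA per cell cannot be told apart.

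**Figure D2:**
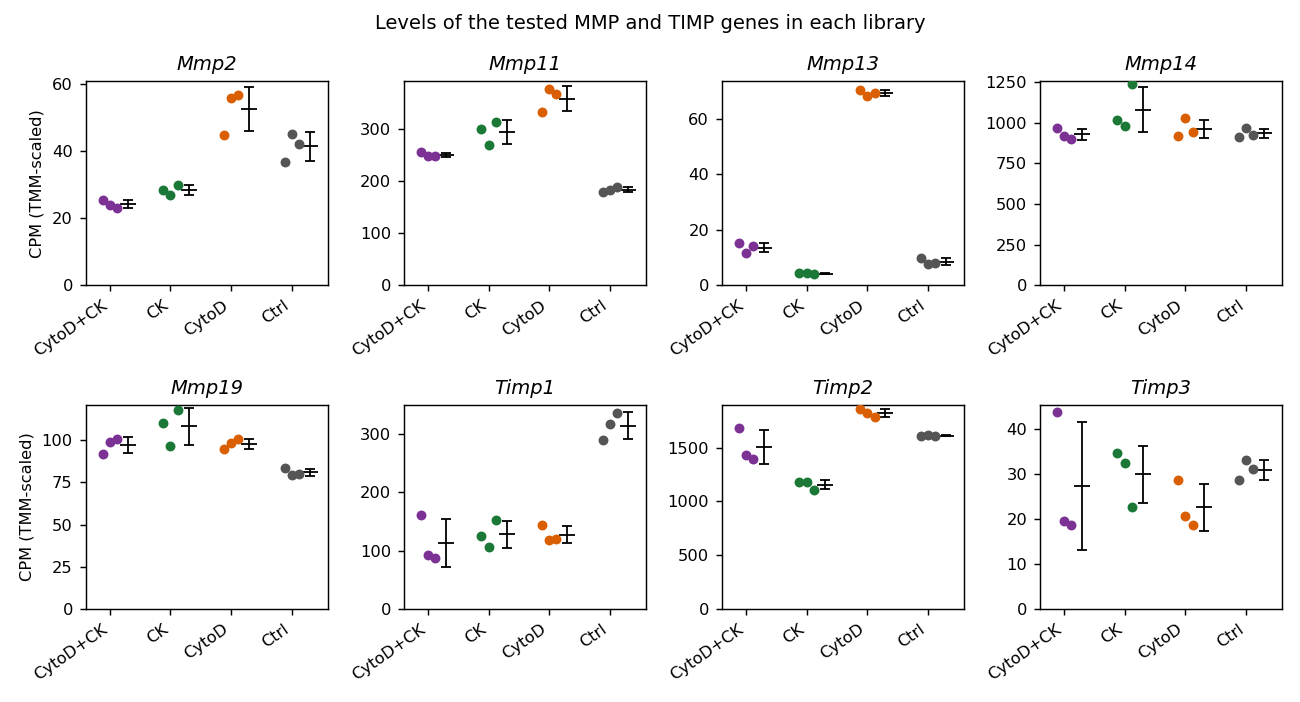
TMM-scaled CPM of the 8 tested genes, 1 panel per gene, with 1 point per library and, at the right of each group, the mean and SD of its 3 libraries. The 3 CytoD libraries of Mmp13 lie at 68.5 to 70.4 CPM, above every other library, and all treated libraries of Timp1 lie below the Ctrl libraries.

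Mmp13, a collagenase (chromosome 9, 7272514 to 7283333), was measured at 15.1, 11.7 and 14.0 CPM in the CytoD+CK libraries, 4.29, 4.29 and 4.04 CPM in the CK libraries, 70.4, 68.5 and 69.5 CPM in the CytoD libraries, and 9.81, 7.57 and 8.19 CPM in the Ctrl libraries. No library of one group overlapped with those of another, and the order was CytoD, CytoD+CK, Ctrl, CK. The log2 fold change against Ctrl was 3.03 (SE 0.11, adjusted p = 1.17e-08) in CytoD, the 94th highest of 13534 genes. It was -1.02 (SE 0.11, adjusted p = 1.56e-05) in CK and 0.67 (SE 0.11, adjusted p = 0.000186) in CytoD+CK. CK was thus 16.5-fold lower than CytoD (log2 -4.04, SE 0.12, adjusted p = 6.35e-10), the 15th lowest value of that comparison. Cytochalasin D added to CK666 went with a 3.23-fold higher level (log2 1.69, SE 0.11, adjusted p = 3.81e-06), and CK666 added to cytochalasin D with a 5.11-fold lower one (log2 -2.35, SE 0.11, adjusted p = 6e-08). The summed levels of osteoclast and of macrophage markers were also higher in CytoD, in each case through a single gene. The summed level of 8 osteoclast markers, mostly Ctsk, was 158 to 182 CPM in CytoD+CK, 128 to 138 CPM in CK, 236 to 253 CPM in CytoD and 147 to 151 CPM in Ctrl, with Calcr and Dcstamp at no more than 3 counts. The 14 macrophage markers summed to 8.24 to 8.98 CPM in CytoD+CK, 7.21 to 9.39 CPM in CK, 12.6 to 13.5 CPM in CytoD and 10.1 to 10.9 CPM in Ctrl. Of 3 osteoclast markers tested in CytoD against Ctrl, Ctsk was higher (log2 1.09, adjusted p = 1.09e-06), Nfatc1 was lower (log2 -0.67, adjusted p = 0.000156) and Atp6v0d2 was at -0.12 (adjusted p = 0.746). Of 6 macrophage markers tested, Lyz2 was called higher (log2 1.77, adjusted p = 0.0001), and the others, among them Csf1r at -0.37 and Cd14 at -0.24, were not called. The part of these markers in the Mmp13 result was not tested.

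Mmp2, a gelatinase activated with the help of MMP14 and TIMP2 (chromosome 8, 92827328 to 92853420), was measured at 25.5, 23.9 and 23.2 CPM in CytoD+CK, 28.4, 26.8 and 29.9 CPM in CK, 44.9, 55.9 and 56.6 CPM in CytoD, and 36.8, 45.2 and 42.1 CPM in Ctrl. All libraries with CK666 lay below all libraries without it, while 1 CytoD library lay within the range of Ctrl. Mmp2 fell in CytoD+CK (log2 -0.77, SE 0.10, adjusted p = 3.4e-05) and in CK (log2 -0.55, SE 0.10, adjusted p = 0.000781), both against Ctrl. It was higher in CytoD than in Ctrl (log2 0.34, SE 0.10, adjusted p = 0.0149). This call failed without CytoD replicate 2, CytoD replicate 3 or Ctrl replicate 1 (adjusted p = 0.0694, 0.0742 and 0.0932). CytoD+CK was 2.17-fold lower than CytoD (adjusted p = 6.39e-06), and CK was 1.85-fold lower than CytoD (adjusted p = 2.82e-05). Between CytoD+CK and CK the log2 difference was -0.23 (SE 0.10, adjusted p = 0.148).

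Mmp11, a stromelysin that is activated inside the cell by furin (chromosome 10, 75923224 to 75932463), was measured at 255, 248 and 247 CPM in CytoD+CK, 299, 269 and 313 CPM in CK, 331, 376 and 366 CPM in CytoD, and 178, 182 and 188 CPM in Ctrl. The 4 groups did not overlap, and CytoD was highest. Against Ctrl it was 1.37-fold higher in CytoD+CK (log2 0.45, SE 0.07, adjusted p = 0.000209), 1.61-fold higher in CK (log2 0.68, SE 0.07, adjusted p = 1.07e-05) and 1.95-fold higher in CytoD (log2 0.97, SE 0.07, adjusted p = 1.2e-06). CytoD+CK was lower than CytoD (log2 -0.52, SE 0.07, adjusted p = 0.000169). Against CK its log2 difference was -0.23 (SE 0.07, adjusted p = 0.0524), which missed the threshold here and passed it with DESeq2 (adjusted p = 0.0195), with a gene-length offset (adjusted p = 0.0418) and without CK replicate 2 (adjusted p = 0.0158). CK was lower than CytoD (log2 -0.28, SE 0.07, adjusted p = 0.00769), a call lost when only these groups were fitted (adjusted p = 0.050).

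Mmp19, a widely expressed secreted MMP (chromosome 10, 128790910 to 128800824), was measured at 91.6, 99.1 and 101 CPM in CytoD+CK, 110.1, 96.4 and 118 CPM in CK, 94.7, 98.4 and 101 CPM in CytoD, and 83.4, 79.6 and 80.3 CPM in Ctrl. Every treated library lay above every Ctrl library, and the treated groups overlapped. The log2 fold change against Ctrl was 0.26 (SE 0.08, adjusted p = 0.0146) in CytoD+CK, 0.42 (SE 0.08, adjusted p = 0.000963) in CK and 0.27 (SE 0.08, adjusted p = 0.0149) in CytoD. The call in CytoD+CK failed without CytoD+CK replicate 2 or 3 or any Ctrl library (adjusted p = 0.0546, 0.0596, 0.0602, 0.0567 and 0.0877). The call in CytoD was lost without CytoD replicate 3, Ctrl replicate 2 or Ctrl replicate 3 (adjusted p = 0.0611, 0.0599 and 0.0706). The gene overlaps Tmem198b, which lies on the other strand and averaged 22.2 CPM, and no source used here says whether counting used strand.

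Mmp14, the membrane-anchored collagenase that activates MMP2 (chromosome 14, 54431604 to 54441258), was measured at 968, 918 and 899 CPM in CytoD+CK, 1019.8, 981 and 1239 CPM in CK, 919, 1026 and 945 CPM in CytoD, and 910.0, 967 and 927 CPM in Ctrl. The CytoD+CK and CytoD libraries overlapped with Ctrl, and the CK libraries lay above it. The log2 fold changes against Ctrl were -0.01 in CytoD+CK (adjusted p = 0.937), 0.21 in CK (adjusted p = 0.0666) and 0.04 in CytoD (adjusted p = 0.722), each with an SE of 0.09. Without CK replicate 2 the difference between CK and Ctrl passed the threshold (adjusted p = 0.0234).

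Timp1, an inhibitor of most MMPs (chromosome X, 20870166 to 20874737), was measured at 161, 91.8 and 87.9 CPM in CytoD+CK, 125, 106 and 152 CPM in CK, 144, 118 and 120.3 CPM in CytoD, and 289.8, 317 and 335 CPM in Ctrl. All 9 treated libraries lay below the lowest Ctrl library, and the treated groups overlapped with each other. The log2 fold change against Ctrl was -1.47 (SE 0.20, adjusted p = 6.24e-05) in CytoD+CK, -1.30 (SE 0.20, adjusted p = 0.000243) in CK and -1.30 (SE 0.20, adjusted p = 0.000278) in CytoD. In CytoD+CK, replicate 1 had 161 CPM against 91.8 and 87.9 CPM in the others, and without it the change against Ctrl was -1.81 (adjusted p = 1.32e-06). Without it CytoD+CK was also lower than CytoD (log2 -0.50, adjusted p = 0.0184) and lower than CK (log2 -0.51, adjusted p = 0.0334), differences that with all libraries were -0.17 (adjusted p = 0.574) and -0.17 (adjusted p = 0.605). Between CK and CytoD the log2 difference was 0.00 (SE 0.20, adjusted p = 0.992), and it ranged from -0.26 to 0.12 over the alternatives tried. With 890 bases Timp1 is the shortest of the 10 transcripts, and the change in CK against Ctrl was -1.56 with a gene-length offset and -1.49 without CK replicate 3. The gene lies within Syn1, which is on the other strand and averaged 2.56 CPM.

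Timp2, the inhibitor that also takes part in MMP2 activation (chromosome 11, 118301061 to 118355411), was measured at 1685, 1433 and 1393 CPM in CytoD+CK, 1182, 1178 and 1108 CPM in CK, 1860.2, 1818 and 1784 CPM in CytoD, and 1610.4, 1619 and 1605 CPM in Ctrl. CK libraries were lowest and CytoD libraries highest, with no overlap with the other groups. Timp2 fell in CK against Ctrl (log2 -0.48, SE 0.07, adjusted p = 0.000209) and was lower in CK than in CytoD (log2 -0.66, SE 0.07, adjusted p = 2.79e-05). CytoD+CK was higher than CK (log2 0.38, SE 0.07, adjusted p = 0.00496), a call lost when only these groups were fitted (adjusted p = 0.0975). It was lower than CytoD (log2 -0.28, SE 0.07, adjusted p = 0.0120), a call lost without CytoD+CK replicate 2 or 3 (adjusted p = 0.0606 and 0.0571). The log2 change in CytoD against Ctrl was 0.18 (SE 0.07, adjusted p = 0.0732), and it passed the threshold with a gene-length offset (adjusted p = 0.034), when only these groups were fitted (adjusted p = 0.00186) and without CytoD+CK replicate 1 or CK replicate 3 (adjusted p = 0.0274 and 0.0393). In CytoD+CK against Ctrl the change was -0.10 (adjusted p = 0.286), and -0.19 without CytoD+CK replicate 1 (adjusted p = 0.0272). The row BC100451, which averaged 1.48 CPM, overlaps the gene.

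Timp3, the inhibitor that is held in the matrix (chromosome 10, 86300412 to 86349505), was measured at 43.9, 19.6 and 18.6 CPM in CytoD+CK, 34.6, 32.6 and 22.6 CPM in CK, 28.6, 20.6 and 18.7 CPM in CytoD, and 28.6, 33.1 and 31.2 CPM in Ctrl. Libraries of the treated groups varied more than those of Ctrl, and CytoD+CK replicate 1 was the highest of all 12. The log2 changes against Ctrl were -0.18 in CytoD+CK (SE 0.28, adjusted p = 0.634), -0.05 in CK (SE 0.28, adjusted p = 0.900) and -0.45 in CytoD (SE 0.28, adjusted p = 0.229). Without CytoD+CK replicate 1, CytoD+CK was lower than Ctrl (log2 -0.70, adjusted p = 0.0116) and lower than CK (log2 -0.65, adjusted p = 0.0499). When only CytoD and Ctrl were fitted, the difference between these passed the threshold (adjusted p = 0.00779). Timp3 lies within Syn3, which is on the other strand and averaged 0.970 CPM.

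**Figure D3:**
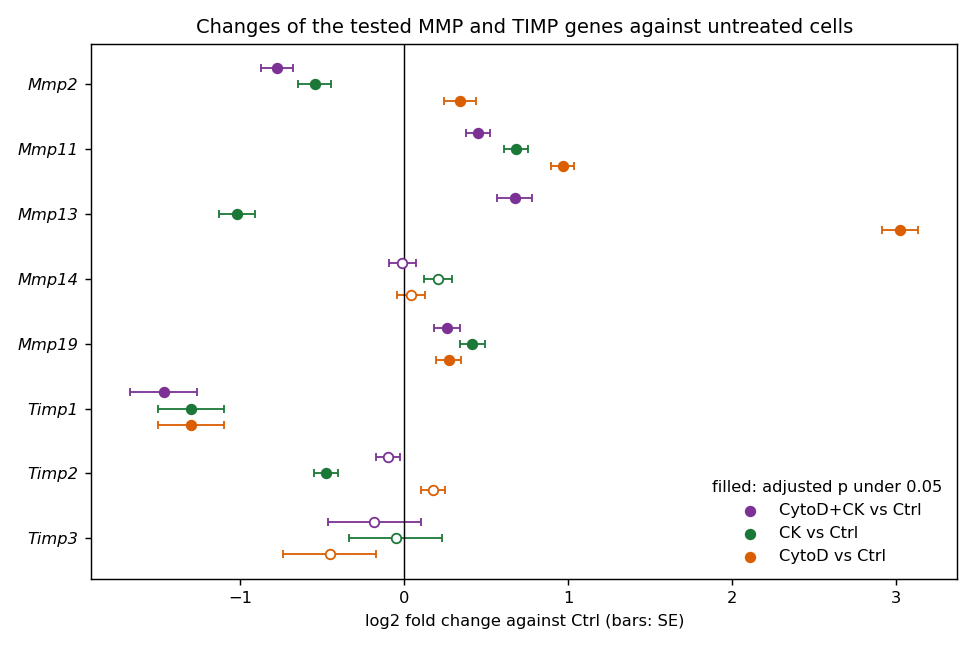
Log2 fold changes against Ctrl of the 8 tested genes with their SE, for CytoD+CK, CK and CytoD, with filled points for an adjusted p under 0.05. Mmp13 spans from -1.02 in CK to 3.03 in CytoD, the 3 points of Timp1 lie between -1.47 and -1.30, and all 3 points of Mmp14 and Timp3 are open.

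Mmp3 and Mmp9 were not tested. Mmp3, a stromelysin (chromosome 9, 7445822 to 7455974), had 2, 4 and 4 counts in the CytoD+CK libraries, 0, 0 and 2 counts in the CK libraries, 10, 14 and 2 counts in the CytoD libraries and 0 counts in each Ctrl library. It exceeded the floor of 3 counts in 4 of 12 libraries, all of them treated with cytochalasin D. In a fit without the filter on low counts the difference between CytoD and Ctrl passed the threshold (adjusted p = 0.0169), resting on 26 counts in 3 libraries. Mmp9, a gelatinase of osteoclasts and leukocytes (chromosome 2, 164948251 to 164955846), had 2, 14 and 2 counts in CytoD+CK, 0, 2 and 2 counts in CK, 8, 2 and 2 counts in CytoD and 4, 2 and 2 counts in Ctrl. It exceeded 3 counts in 3 libraries, one each of CytoD+CK, CytoD and Ctrl, and differences between groups were not detectable at this depth.

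Of the 8 members, 4 were called in CytoD+CK against CytoD, all lower (Mmp2, Mmp11, Mmp13 and Timp2), with 30.1% of all genes called (15.8% higher, 14.3% lower). In CytoD+CK against CK 2 were called, both higher (Mmp13 and Timp2), with 11.6% of all genes called (4.43% higher, 7.17% lower). In CK against CytoD 4 were called, all lower (Mmp2, Mmp11, Mmp13 and Timp2), with 39.8% of all genes called (22.9% higher, 16.8% lower). Without CytoD+CK replicate 1 the count in CytoD+CK against CK was 4, without CK replicate 2 it was 5, and when only these groups were fitted it was 1. Without CK replicate 2, Mmp14 and Mmp19 were also called in CK against CytoD, both higher (adjusted p = 0.0486 and 0.0284).

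Whether the change with cytochalasin D differed in the presence of CK666 was tested as an interaction, the log2 change of CytoD+CK over CK minus that of CytoD over Ctrl. It was called for 5 of 8 members, 1 of them positive and 4 negative, beside 14.3% of all genes (6.63% positive, 7.67% negative). For Mmp13 the change with cytochalasin D was 1.69 in the presence of CK666 and 3.03 in its absence, a difference of -1.33 (SE 0.15, adjusted p = 0.000244). For Mmp11 it was -0.23 with CK666 and 0.97 without, a difference of -1.20 (SE 0.10, adjusted p = 4.49e-05). For Timp1 it was -0.17 with CK666 and -1.30 without, a difference of 1.13 (SE 0.28, adjusted p = 0.0195). For Mmp2 the difference was -0.57 (SE 0.14, adjusted p = 0.0178) and for Mmp19 -0.43 (SE 0.11, adjusted p = 0.0224). The calls of Mmp13 and Mmp11 held without any one library. That of Timp1 was lost without CytoD replicate 2, CytoD replicate 3 or Ctrl replicate 3 (adjusted p = 0.0561, 0.0543 and 0.051), and that of Mmp2 without CytoD replicate 2, CytoD replicate 3 or Ctrl replicate 1 (adjusted p = 0.0562, 0.0556 and 0.0512). That of Mmp19 was lost without CytoD+CK replicate 1, CytoD replicate 2, CytoD replicate 3 or any of Ctrl replicates 1, 2 and 3 (adjusted p = 0.052, 0.0596, 0.0651, 0.0522, 0.0646 and 0.0737).

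Summed over the set, transcripts of the 3 TIMPs outweighed those of the 7 MMPs in Ctrl and less so, or not at all, in treated cells. This sum counts RNA per length and was not tested. It leaves out MMPs outside the set, of which Mmp23 was abundant. Mmp23 averaged 68.2 ± 2.55 RPKM in CytoD+CK, 88.0 ± 13.4 RPKM in CK, 87.7 ± 2.13 RPKM in CytoD and 96.4 ± 4.08 RPKM in Ctrl. Counting it would lower every ratio below, and each share of the MMP sum. The ratio of summed TIMP RPKM to summed MMP RPKM was 1.24, 0.996 and 0.978 in the CytoD+CK libraries, 0.833, 0.843 and 0.727 in the CK libraries, 1.20, 1.01 and 1.05 in the CytoD libraries, and 1.65, 1.64 and 1.72 in the Ctrl libraries. All treated libraries lay below all Ctrl libraries, and CK lay below the other groups. The MMP sum averaged 449.8 ± 8.97 RPKM in CytoD+CK, 531 ± 54.0 RPKM in CK, 527 ± 42.2 RPKM in CytoD and 405 ± 11.3 RPKM in Ctrl. The TIMP sum averaged 483 ± 76.4 RPKM in CytoD+CK, 423 ± 11.3 RPKM in CK, 569 ± 23.3 RPKM in CytoD and 676 ± 18.6 RPKM in Ctrl. RPKM carry no TMM scaling, whose factors were 0.941 to 0.953 in Ctrl and 0.994 to 1.03 in treated libraries. This shifts sums between groups but not the ratios. Mmp14, for example, averaged more in CytoD+CK than in Ctrl by RPKM (315 against 302) but not by CPM (928 against 935). Timp1 made up 22.8% of the TIMP sum in CytoD+CK, 30.5% in CK, 22.0% in CytoD and 43.8% in Ctrl, and Timp2 nearly all of the rest. Mmp13 made up 0.997% of the MMP sum in CytoD+CK, 0.270% in CK, 4.32% in CytoD and 0.663% in Ctrl, so that even in CytoD it was a small part beside Mmp14, at 61.7%.

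**Figure D4:**
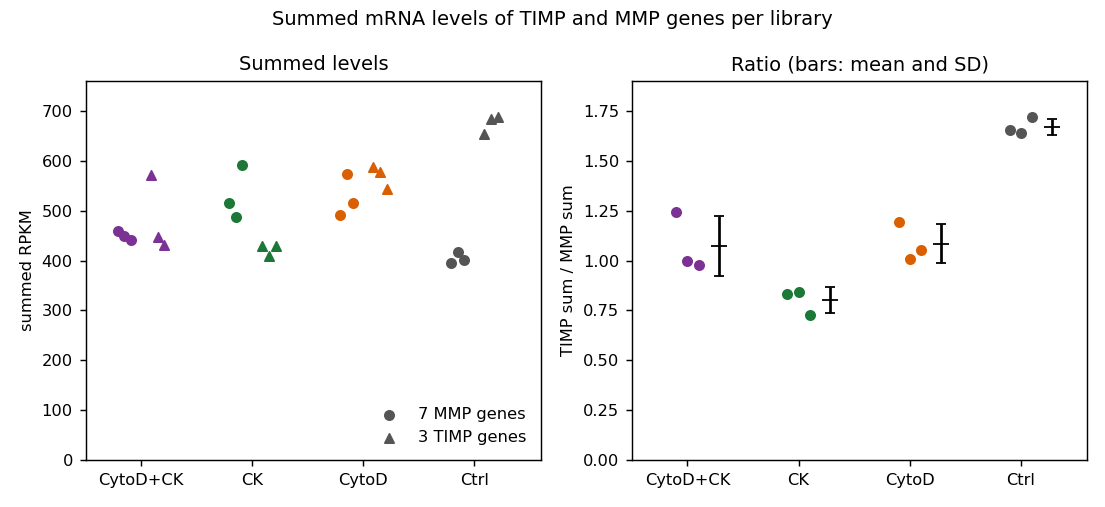
Left, summed RPKM of the 7 MMP genes (circles) and the 3 TIMP genes (triangles) in each library, and right, the ratio of the TIMP sum to the MMP sum with the mean and SD of each group, for CytoD+CK, CK, CytoD and Ctrl from left to right. The ratio is 1.64 to 1.72 in Ctrl and below 1.3 in every treated library.

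The genes whose log2 CPM followed Mmp13 most closely over the 12 libraries, among 11513 genes of at least 1 CPM, were Serpine2, a serine protease inhibitor (Pearson r = 0.991), Gdpd2 (0.991), the transcription factor Atoh8 (0.981) and the receptor adaptor Grb14 (0.977). Serpine2 averaged 228 ± 5.80 CPM in CytoD+CK, 147 ± 6.07 CPM in CK, 429.7 ± 31.4 CPM in CytoD and 184 ± 4.69 CPM in Ctrl, the same order of groups as for Mmp13. Timp1 was followed most closely by the tropomyosin gene Tpm3 (0.987), the Arp2/3 subunit gene Arpc2 (0.986), Pea15a (0.983) and Wisp2 (0.980). Arpc2 averaged 397 ± 30.9 CPM in CytoD+CK, 418 ± 37.0 CPM in CK, 412 ± 21.4 CPM in CytoD and 555 ± 10.9 CPM in Ctrl. These correlations describe libraries that share the 4 treatments, and no test was made.

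On a list of 17 genes, made up of other MMPs and Timp4, 7 were tested. Mmp1a, Mmp1b, Mmp7, Mmp8 and Mmp12 were at 0 counts in all 12 libraries, Mmp10 had 6 counts in 1 CytoD library only, and Mmp20, Mmp21, Mmp25 and Mmp27 never exceeded 2, 2, 4 and 12 counts. In CytoD+CK against Ctrl 2 rose and 2 fell, in CK 2 rose and 1 fell, and in CytoD 1 rose and 1 fell, beside 46%, 41.1% and 37.9% of all genes called. Mmp15, a membrane-type MMP, rose to 23.8 ± 3.80 CPM in CytoD+CK (log2 1.00, SE 0.13, adjusted p = 3.04e-05) and 25.2 ± 3.59 CPM in CK (log2 1.08, SE 0.13, adjusted p = 2.61e-05), against 11.9 ± 0.234 CPM in Ctrl. In CytoD it stood at 11.7 ± 1.30 CPM (adjusted p = 0.917). Mmp28 rose to 10.9 ± 0.304 CPM in CytoD+CK (log2 0.92, SE 0.11, adjusted p = 2.33e-05), against 5.80 ± 0.514 CPM in Ctrl. Its smaller differences in CK (log2 0.30, adjusted p = 0.0478) and CytoD (log2 0.31, adjusted p = 0.0486) lost their calls under 18 and 11 of 19 alternatives. In CK the call failed without any single library other than CK replicate 3 (adjusted p up to 0.204), and in CytoD without any CytoD+CK library, CK replicate 2, CytoD replicate 1 or 3, or Ctrl replicate 2 or 3 (adjusted p up to 0.180). Mmp23, which is more abundant per length than Mmp11 in Ctrl (96.4 ± 4.08 RPKM), fell to 111 ± 4.96 CPM in CytoD+CK, against 165 ± 8.17 CPM in Ctrl (log2 -0.57, SE 0.10, adjusted p = 0.000357). Mmp17, with at most 46 counts in any library, was called lower in all 3 treated groups (log2 -0.99 in CytoD+CK, -0.99 in CK and -0.90 in CytoD, adjusted p = 0.0192, 0.0231 and 0.0371). Each of these calls failed without Ctrl replicate 2 or 3, and without CytoD+CK replicate 1 or 2, CK replicate 1 or 3, and CytoD replicate 1 or 3 in their own comparison, with adjusted p from 0.0544 to 0.119. Mmp16, Mmp24 and Timp4 were called in none of the 3 comparisons with Ctrl, with mean levels under 2 CPM.

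Of 12 tested genes that activate, inhibit or clear MMPs, 9 fell and none rose in CytoD+CK, 9 fell and none rose in CK, and 5 fell and 2 rose in CytoD, all against Ctrl. Of all genes tested, 21.6% fell and 24.4% rose in CytoD+CK, 18.7% fell and 22.5% rose in CK, and 18.9% fell and 19.1% rose in CytoD. The median log2 fold change of the list was -0.49 in CytoD+CK, -0.68 in CK and -0.30 in CytoD, beside 0.04, 0.03 and 0.02 over all genes. The 2 that rose in CytoD were Reck (1.53-fold, adjusted p = 0.00181) and Pcsk6 (1.36-fold, adjusted p = 0.000767). In CK both were lower than in Ctrl (1.30-fold and 1.63-fold, adjusted p = 0.0260 and 1.8e-05). Plau, Plat and Cd44 are among the genes of the list with the largest changes in CK and in CytoD. Plau, the urokinase that starts the plasmin cascade upstream of MMPs, averaged 3.56 ± 0.0558 CPM in CK and 6.86 ± 1.33 CPM in CytoD, against 15.5 ± 0.594 CPM in Ctrl (log2 -2.12 and -1.18, adjusted p = 7.97e-07 and 8.84e-05). Plat, the tissue plasminogen activator, fell 1.98-fold in CK and 2.45-fold in CytoD. Cd44, a hyaluronan receptor to which several MMPs dock, fell 1.83-fold in CK and 1.84-fold in CytoD.

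Of 18 tested matrix substrates of MMPs, 12 fell and none rose in CytoD+CK, 11 fell and 1 rose in CK, and 8 fell and 2 rose in CytoD, where 21.6%, 18.7% and 18.9% of all genes fell and 24.4%, 22.5% and 19.1% rose. Their median log2 fold change was -0.61 in CytoD+CK, -0.48 in CK and -0.25 in CytoD, beside 0.04, 0.03 and 0.02 over all genes. Fibrillin 1, Fbn1, averaged 227 ± 52.5 CPM in CK and 347 ± 17.4 CPM in CytoD, against 738 ± 55.0 CPM in Ctrl (log2 -1.70 and -1.09). Fibronectin, Fn1, was 2.58-fold lower in CK and 1.65-fold lower in CytoD. The type III collagen chain Col3a1 and tenascin C, Tnc, fell 3.43-fold and 2.85-fold in CK. Col1a1, a chain of type I collagen, a substrate of MMP13, fell in all 3 treated groups. It fell 1.71-fold in CytoD, where Mmp13 was highest, 2.43-fold in CK and 3.20-fold in CytoD+CK. Decorin, Dcn, was at 0.743 ± 0.220 CPM in CytoD, against 0.315 ± 0.151 CPM in Ctrl (log2 1.23, adjusted p = 0.0256). That call failed without CytoD replicate 2, CytoD replicate 3, Ctrl replicate 1 or Ctrl replicate 2 (adjusted p = 0.103, 0.0837, 0.0945 and 0.105).

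All 16 genes on a list of transcription factors known to act on MMP promoters were tested. Of these 10 fell and 1 rose in CytoD+CK, 11 fell and none rose in CK, and 5 fell and 3 rose in CytoD, again beside 21.6%, 18.7% and 18.9% of all genes that fell and 24.4%, 22.5% and 19.1% that rose. The median log2 fold changes were -0.38, -0.48 and -0.26, beside 0.04, 0.03 and 0.02 over all genes. Runx2, a factor of bone-forming cells known to act on Mmp13, averaged 90.9 ± 3.0 CPM in CytoD, against 65.7 ± 1.66 CPM in Ctrl (log2 0.47, SE 0.09, adjusted p = 0.00152). In CK it was at 52.7 ± 7.15 CPM (log2 -0.32, adjusted p = 0.0148), a call lost when only CK and Ctrl were fitted (adjusted p = 0.0594), and in CytoD+CK at 59.4 ± 4.50 CPM (adjusted p = 0.222). The AP-1 subunit genes Jun and Jund fell in CytoD by 1.10 and 0.71 on the log2 scale, and Fosl2 fell by 1.13 in CK. The other AP-1 genes on the list, Fos, Fosb, Fosl1, Fosl2 and Junb, were not called in CytoD (adjusted p = 0.659, 0.444, 0.543, 0.185 and 0.153). Jun, Jund and Junb were also lower in CK (log2 -0.52, -0.54 and -0.59, adjusted p = 0.0215, 0.00182 and 0.0446). In CytoD+CK Jun, Jund, Junb, Fos and Fosl2 were lower (log2 -0.49, -0.54, -1.14, -2.54 and -0.93). Fosl1 was higher there (log2 0.37, adjusted p = 0.0477). The Jun calls in CK and CytoD+CK were lost under 3 and 4 of 19 alternatives. Fos was at 4.0 ± 1.51 CPM in CK, against 12.2 ± 6.60 CPM in Ctrl (adjusted p = 0.0304), a call lost without CK replicate 1, CK replicate 2, Ctrl replicate 2 or Ctrl replicate 3 (adjusted p = 0.0923, 0.0555, 0.131 and 0.0688). The ETS factor gene Etv4 fell 1.70-fold in CK and 2.06-fold in CytoD, and Ets2 fell 1.76-fold in CK.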

How the data were processed

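RNA was isolated with a miRNeasy kit and made into libraries by standard Illumina protocols, per the labels' protocols. Per the submitters' processing notes, CASAVA 1.9, TopHat 12.0.6 (as written there), HTSeq and the build hg19 were used. The deposited counts are whole numbers of reads per gene, per the file headers, and the deposited RPKM were made by the authors per kilobase of the table's length column and per a library total 1.12 to 1.16 times the sum of counts. The named build is human, but symbols are of mouse genes and the members' coordinates overlap GRCm38 genes of the same name in GENCODE M21. Whether reads were counted by strand is not given in the sources used here.

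Counts were fitted as deposited in edgeR 4.0.16 (R 4.3.3) with filterByExpr (minimum count 10), TMM scaling and a mean for each of 4 groups over 12 libraries, and 13534 genes were tested in 7 comparisons with 2-sided quasi-likelihood tests, Benjamini-Hochberg adjustment within each comparison and no adjustment across comparisons. The common biological coefficient of variation was 0.115. The SE is the log2 fold change over the square root of F. All pairs of replicates differed by more than sampling noise (chi-square per degree of freedom at least 11.4). The fit was also run on simulated counts with the same coefficient of 0.115 for every gene and no outlying library. That run does not show how the fit behaves with a library such as CK replicate 3. Alternatives were RLE size factors, no filter, halved counts, a replicate block, a gene-length offset, each library left out, only the groups compared, and DESeq2 1.42.0. Members and lists were chosen with earlier results of these data known. All members are named. From each other list except those of cell type markers, so are the 4 called genes with the largest changes in CytoD and in CK against Ctrl. All detected MMPs and Timp4 are named, with the 4 genes most correlated with Mmp13 and with Timp1. Of the cell type markers only some are named, and not by the size of their change. Values of other comparisons are given for some of these. The AP-1 genes not called in CytoD, and Reck and Pcsk6, are named too. A gene this rule selects is not reported here. Marker lists of endothelial, neutrophil, and erythroid and lymphoid cells summed to at most 3.96, 6.39 and 0.163 CPM per library.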

Additional observations from a re-analysis of the deposited data

Results flagged for a closer look

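For 5 members the change with cytochalasin D in the presence of CK666 (CytoD+CK against CK) differed from that in its absence (CytoD against Ctrl) by a test of the difference itself in edgeR. The log2 difference was -1.33 for Mmp13 (adjusted p = 0.000244), -1.20 for Mmp11 (adjusted p = 4.49e-05), -0.57 for Mmp2 (adjusted p = 0.0178), -0.43 for Mmp19 (adjusted p = 0.0224) and 1.13 for Timp1 (adjusted p = 0.0195). The calls of Mmp13 and Mmp11 held without any one library, while that of Mmp2 was lost without any of 3 single libraries, that of Mmp19 without any of 6 and that of Timp1 without any of 3. Of all 13534 genes, 14.3% differed in this way. The causes were not tested.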

How the results depend on the processing

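The 56 results of the 8 tested members (8 in each of 7 comparisons) were recomputed under 19 alternatives (18 for the interaction), and 988 of 1056 recomputed values kept their direction and their side of the threshold, 27 lost their call, 18 gained one and 23 changed sign. All 23 that changed sign were called neither before nor after. In CK against CytoD, Timp1 (0.0028 in the main analysis) was at -0.028 with RLE size factors, -0.0084 without the filter, -0.022 with halved counts, -0.26 with a gene-length offset, -0.018 with only these groups, -0.028 with DESeq2 and -0.17 to 0.12 without single libraries, below 0 without CytoD replicate 2 or 3, CK replicate 3, or Ctrl replicate 1 or 3. The others changed sign only without single libraries, over which Timp3 ran from -0.17 to 0.074 in CK against Ctrl, -0.70 to 0.031 in CytoD+CK against Ctrl, -0.24 to 0.49 in CytoD+CK against CytoD, -0.65 to 0.083 in CytoD+CK against CK and -0.19 to 0.54 in the interaction. Mmp14 ran from -0.0058 to 0.075 in CytoD against Ctrl and -0.063 to 0.014 in CytoD+CK against Ctrl, and Mmp19 from -0.036 to 0.032 in CytoD+CK against CytoD.

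Of all genes, 1570 were called in CytoD+CK against CK, 745 to 2563 without single libraries (778 and 745 without CytoD+CK replicates 2 and 3, 2563 without CK replicate 2) and 459 with only these groups, of which 24.0% were higher, against 38.2% of the 1570. Members called there were 2, against 2 to 5 without single libraries and 1 with only these groups. Of the genes called in CK against Ctrl 54.6% were higher, and 48.0% with RLE size factors, 48.0% with DESeq2 and 45.8% without CK replicate 3. In CK against CytoD 5380 genes were called, and 3558 with only these groups. The interaction was called for 1935 genes, and for 1094 to 3396 without single libraries (1094 and 1115 without CytoD replicates 2 and 3, 1112 and 1114 without Ctrl replicates 2 and 3, 3396 without CK replicate 3, of which 57.0% were higher against 46.4%), and for 5 members, against 2 to 5. In CytoD against Ctrl 5136 genes were called. Without single libraries the count was 3862 to 6924, highest without CK replicate 3, and with only these groups it was 7344. In CytoD+CK against Ctrl 6225 were called, and 5117 to 7735 without single libraries, highest without CK replicate 3. The shares of all genes given above thus depend on the libraries fitted. Fits of only the groups compared gave fewer calls in some comparisons and more in others. The causes of these shifts were not tested.

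Whether the replicate numbers pair the libraries is not stated in the labels, and these values do not settle it. Deviations from the group means correlated at -0.079 to 0.256 between same-numbered libraries, over 0.1 in 4 of 18 pairs. Of the 12 libraries, 8 correlated best with their own number. A replicate block changed no member's call and gave, for example, 5212 called genes in CytoD against Ctrl (5136 without it) and 2078 in the interaction. Depth limits Mmp3 and Mmp9, which had at most 14 counts in any library, and the even counts mean that counting error may be larger than the counts imply.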
